A study of Brassica oleracea with 15 samples.

Results

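Gene expression in the top flank of gravity-stimulated hypocotyls was set against that of unstimulated control flanks in etiolated seedlings of Brassica oleracea. The 6 arrays compared, 3 of the top flank and 3 of the control, were chosen by the titles of the samples out of 15 arrays in the study. All seedlings were wild type, dark grown and 3 days old, and all arrays were Arabidopsis ATH1 arrays that were given Brassica cRNA. Top flanks came from seedlings given 2 h of gravity stimulation, in which the hypocotyl was split lengthwise into a top flank, a vascular core and a bottom flank. Control flanks came from mock-stimulated seedlings, and their left and right flanks were not kept apart. Each sample was a pool of flank sections about 1 cm long from roughly 100 seedlings, so no array shows 1 plant. The protocol in the labels of the top arrays names both flanks as collected, and the title alone assigns these arrays to the top flank. The other 9 arrays, 3 each of the bottom flank, of the lit flank and of the shaded flank after 2 h of blue light from 1 side, shared the fit and are used here where they show how the top flank differed from them.

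The hypocotyl is the embryonic stem, and in a seedling laid on its side it bends upwards because the bottom flank elongates more than the top flank. Starch-filled plastids in the endodermis sediment when the stem is turned, and the hormone auxin is then moved towards the lower side, where it promotes the loosening of cell walls. The top flank is thus the side of lower auxin and slower growth, and the control is a straight stem in which neither side is favoured.

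Every array had the same trimmed mean signal, 500, and the precision is limited by the 3 arrays of a group. Correlations of log2 signal over the tested probe sets were 0.841 to 0.860 between top arrays, 0.847 to 0.875 between control arrays and 0.797 to 0.852 between a top and a control array. Signals of Affymetrix control probes at the 3' end of transcripts minus those at the 5' end, a measure of intact RNA and cDNA, were -0.21 ± 0.12 log2 units on the top arrays and 0.06 ± 0.30 on the control arrays (SD, n = 3 arrays each; difference -0.27, two-sided exact permutation p = 0.3, where 0.1 is the smallest possible). Without control replicate 1 that difference was -0.10. None of the markers of epidermis, vascular tissue, endodermis, root or seed listed for a check of the tissue had a named probe set among those tested, so the label hypocotyl flank could not be checked that way. Dates of collection and hybridisation are not given, so batches of seedlings or arrays and the stimulation cannot be told apart. In these pooled tissues fewer cells of a type and less RNA per cell cannot be told apart.

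Most of the measured transcripts of the top flank lay near their control level, and a small set differed in both directions. Of 11371 probe sets tested, 97, or 0.853%, passed an adjusted p of 0.05 in limma's moderated test, 48 higher in the top flank (0.422%) and 49 lower (0.431%). At an unadjusted p under 0.05 there were 1311, where chance alone gives 569. The median log2 difference over all tested probe sets was 0.00, and 49.7% were below 0. Among the 97 the size of the difference exceeded 1 log2 unit in 68, and in each of the 97 the 3 top arrays lay wholly above or wholly below the 3 control arrays. That separation was also met by 8.79% of all tested probe sets upwards and 9.18% downwards. Of the 97, 48 carried a single gene symbol in the annotation of the array, 19 of them higher and 29 lower, 5 carried several symbols and 44 were unnamed, 27 of these higher and 17 lower. For 11 of the 48 higher probe sets the control mean, and for 4 of the 49 lower ones the top mean, was itself under the brightness limit of 8.28 on the log2 scale, so these entered the test through groups in which they were brighter. No detection calls were used, so the fold of such a probe set rests on dim signals and is no exact size. The 11 include AT3G25810, AT2G21100, AT5G05320, AT3G09470, ALDH22A1, 253666_at and 261438_at, and the 4 are AT1G51300, AT5G20110, AT3G20430 and ARA12. The count fell with any 1 array left out. It was 33, 39 and 52 without control replicates 1, 2 and 3, and 21, 82 and 61 without top replicates 1, 2 and 3. Without 1 array of the other flanks it ran from 79 to 92. Each such fit has fewer arrays, and the part of that in the lower counts was not tested. Of the 97 calls, 20 remained without top replicate 1, 29 without control replicate 1, 35 without control replicate 2, 44 without control replicate 3 and 54 without top replicate 3.

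**Figure D1:**
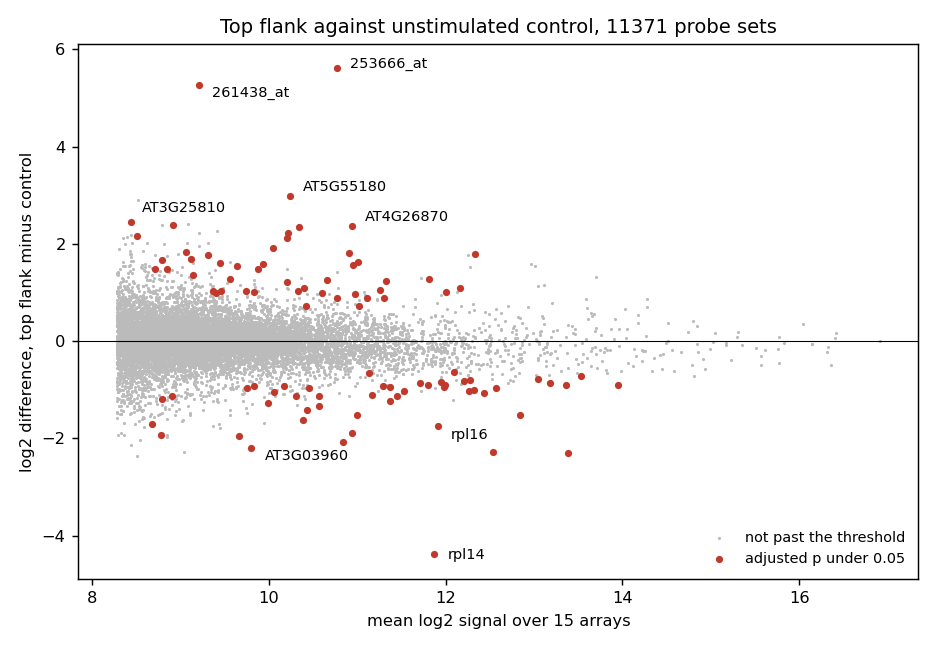
Log2 difference of the top flank from the control (vertical axis) against mean log2 signal over 15 arrays (horizontal axis) for 11371 probe sets, with the 97 past an adjusted p of 0.05 in red. Of these, 48 lie above and 49 below 0, and rpl14 stands lowest, at -4.38, while the unnamed 253666_at stands highest, at 5.61.

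The largest decrease of a named gene was that of the plastid ribosomal gene rpl14, and rpl16 also fell. The genes rpl14 and rpl16, which encode proteins L14 and L16 of the large subunit of the plastid ribosome, are neighbours in a ribosomal gene cluster of the plastid genome. For rpl14 the control arrays read 17471, 16427 and 13864, and the top arrays read 822, 1112 and 478. Every control array was thus far above every top array, a 20.9-fold lower signal in the top flank (log2 difference -4.38 ± 0.26 SE, limma adjusted p = 9.2e-08). For rpl16 the control arrays read 6633, 7301 and 8227, against 2516, 2485 and 1661 in the top flank. The groups again lay apart, with top replicate 3 the lowest, and rpl16 fell by 1.75 on the log2 scale (SE 0.20, 3.37-fold lower, limma adjusted p = 3.9e-04). Both kept their calls under all 9 alternatives to the processing and without each of the 15 arrays in turn.

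Of the other plastid transcripts for the ribosome and the plastid RNA polymerase none passed the test in limma. The list held 18 tested probe sets, of which 2 passed, both lower, and 3 had an unadjusted p under 0.05. Differences were below 0 in 16, with a median of -0.18 beside 0.00 for all tested probe sets. Of all tested probe sets 0.853% were called, 11.5% had such an unadjusted p and 49.7% were below 0. The lean of the list rested on 1 array: without top replicate 3 its median was -0.01, with 9 of 18 below 0. After rpl16 the next was rps4, a protein of the small subunit, at -0.63 (limma adjusted p = 0.69). The genes that lie beside rpl14 and rpl16 in the same cluster gave -0.19 for rps3, -0.21 for rpl22, -0.46 for rps19 and -0.10 for rpl36, with limma adjusted p values of 0.84, 0.86, 0.52 and 0.95. The polymerase subunit genes rpoB, rpoC1 and rpoC2 gave -0.08, -0.06 and -0.02, and rpoA, which encodes the alpha subunit, gave -0.55 (limma adjusted p = 0.30). The list's median shift on single arrays, measured from the control mean, ran from -0.69 on top replicate 3 to 0.12 on top replicate 2, and from -0.12 to 0.12 on the control arrays.

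Plastid genes for photosynthesis and other functions numbered 49, of which 0 passed the test in limma and 9 had an unadjusted p under 0.05. Over all tested probe sets those shares were 0.853% and 11.5%. The median difference of the 49 was -0.08, with 29 below 0. Its sign depended on 1 array, as without top replicate 3 it was 0.12, with 18 below 0. The highest difference was that of psbD, which encodes the D2 protein of photosystem II. The lowest was that of psbM, a small subunit of the same complex. On the control arrays psbD read 3871, 6990 and 6032, and on the top arrays it read 17752, 10164 and 9950. Although the groups lay apart, top replicate 1 was far above the others, and the difference of 1.15 did not pass (limma adjusted p = 0.14). For psbM the difference was -0.83 (limma adjusted p = 0.10), and for psbB, which encodes the CP47 antenna protein, it was 0.87 (limma adjusted p = 0.25). Nuclear genes for photosynthesis gave a median of 0.22 over 13 probe sets, with 0 called in limma and 0 at an unadjusted p under 0.05. Their median shift from the control mean was 0.53 on top replicate 1, but -0.31 on control replicate 1 and 0.46 on control replicate 3.

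Of 9 mitochondrial probe sets tested 1 passed the test, lower in the top flank, and 3 had an unadjusted p under 0.05. The shares of all tested probe sets were 0.853% and 11.5%. The gene nad4, which encodes a subunit of respiratory complex I, read 10077, 7185 and 7359 on the control arrays and 4538, 5241 and 4082 on the top arrays. The groups did not overlap, with control replicate 1 the highest of all, and nad4 fell by 0.82 on the log2 scale (SE 0.18, limma adjusted p = 0.043). The call was lost when 1 array was left out, for any of the control or bottom arrays and for replicates 1 and 3 of the top and lit flank, and the adjusted p then reached at most 0.19. Quantile normalization, no filter, no intensity trend, a replicate block and the compared groups alone each ended the call of nad4 as well. The 9 mitochondrial probe sets tested had a median of 0.10, from nad4 to cox2, a subunit of cytochrome oxidase, at 1.02 (limma adjusted p = 0.19).

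**Figure D2:**
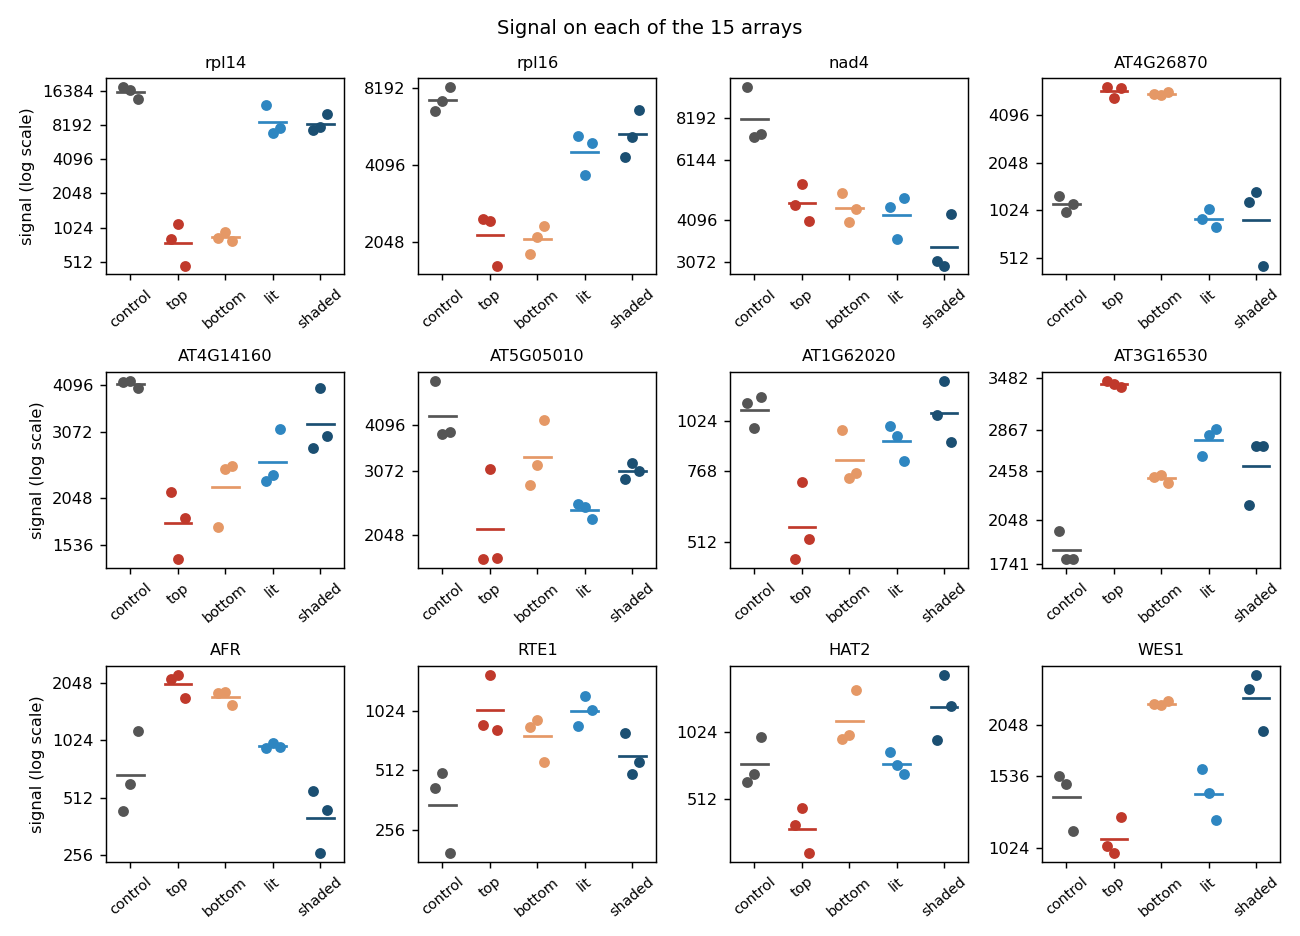
Signal of 12 genes (vertical axes, log scale) on each of the 15 arrays, by group; points are arrays and lines are group means of log2 signal. The top arrays lie below the control arrays for rpl14, rpl16, nad4, AT4G14160, AT5G05010, AT1G62020 and HAT2, above them for AT4G26870, AT3G16530, AFR and RTE1, and among them for WES1.

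Of the vesicle coats that carry proteins between the endoplasmic reticulum and the Golgi, 1 of 11 COPII and 2 of 9 COPI probe sets fell. AT4G14160 encodes a Sec23/Sec24 family protein of the COPII coat, which forms vesicles leaving the endoplasmic reticulum. It read 4162, 4184 and 4019 on the control arrays and 2120, 1409 and 1808 on the top arrays. The 3 control arrays were close together and all the top arrays were lower, and AT4G14160 fell by 1.23 on the log2 scale (SE 0.20, 2.35-fold lower, limma adjusted p = 0.0079), a call kept under all 9 alternatives and without each array in turn. In the COPII list 1 of 11 was called, 3 had an unadjusted p under 0.05 and 7 had differences below 0. Among all tested probe sets 0.853% were called, 11.5% had such an unadjusted p and 49.7% were below 0. The COPII median was -0.09, near that of all tested probe sets. AT2G21630, another member of the COPII list, had the most negative difference, -1.65, with a limma adjusted p of 0.53.

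The COPI coat, which brings vesicles back from the Golgi, was measured by 9 probe sets of 8 genes. All 9 differences were below 0, with a median of -0.76; 2 passed the test and 5 had an unadjusted p under 0.05, beside 0.853% called, 11.5% at that unadjusted p and 49.7% below 0 among all tested probe sets. The COPI, COPII, CCT and cytosolic ribosomal lists were picked after values were seen, so their direction is a description. AT5G05010, the delta subunit, read 5405, 3877 and 3930 on the control arrays and 1759, 3101 and 1774 on the top arrays. Top replicate 2 was higher than the other top arrays but still below every control array, and AT5G05010 fell by 1.03 on the log2 scale (SE 0.21, limma adjusted p = 0.033). AT1G62020, the alpha subunit, read 1131, 980 and 1171 on the control arrays and 463, 720 and 521 on the top arrays. These groups did not overlap either, and AT1G62020 fell by 0.97 on the log2 scale (SE 0.21, limma adjusted p = 0.040). AT3G15980, a beta-prime subunit, had a difference of -1.08 that did not pass (limma adjusted p = 0.19), and the smallest of the 9 was -0.13 for a probe set of AT1G79990. AT5G05010 lost its call without any 1 of the control arrays or of top replicates 1 and 3, where its adjusted p reached 0.16, and AT1G62020 without those and 3 arrays of other groups, where it reached 0.18.

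Among chaperones, which fold newly made proteins, 1 of 6 CCT subunits and Hsp70-2 passed the test, both lower. Hsp70-2 was added after its values were seen. The heat shock and chaperone list, which does not hold Hsp70-2, had 1 tested probe set, at 0.09 and not called. AT3G03960 encodes the theta subunit of the CCT chaperonin, the cytosolic ring complex that folds actin and tubulin. It read 1571, 1484 and 1425 on the control arrays and 268, 150 and 870 on the top arrays. The top arrays spread widely, with top replicate 3 the nearest to the control, and AT3G03960 fell by 2.19 on the log2 scale (SE 0.45, 4.57-fold lower, limma adjusted p = 0.033). Of 6 CCT subunits tested 1 passed, 4 had an unadjusted p under 0.05 and 5 had differences below 0, with a median of -0.53. Among all tested probe sets 0.853% were called, 11.5% had such an unadjusted p and 49.7% were below 0. The other 5 subunits ran from -0.69 to 0.12 without passing. Against the same control arrays the median of this list was -0.38 in the bottom flank, -0.27 in the lit flank and -0.12 in the shaded flank. Hsp70-2, a chaperone of the Hsp70 family, read 7486, 6372 and 8358 on the control arrays and 3197, 3025 and 5077 on the top arrays. Its arrays did not overlap, and it fell by 1.01 on the log2 scale (SE 0.22, limma adjusted p = 0.045). AT3G03960 lost its call without any 1 of the control arrays or of top replicates 1 and 2, its adjusted p reaching 0.14. Hsp70-2 lost it without the same 5 arrays and 5 of other groups, its adjusted p reaching 0.19.

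Cytosolic ribosomal proteins, which build the ribosome that translates nuclear transcripts, were measured by 80 probe sets. Of these, 2 passed the test, both lower, 28 had an unadjusted p under 0.05 and 66 had differences below 0, with a median of -0.38. Among all tested probe sets 0.853% were called, 11.5% had such an unadjusted p and the median was 0.00. AT4G25740, which encodes protein S10 of the small subunit, read 4288, 4564 and 5241 on the control arrays and 2771, 2596 and 2435 on the top arrays. AT1G67430, which encodes L17 of the large subunit, read 6721, 6066 and 7499 on the control arrays and 3911, 3771 and 3999 on the top arrays. For both genes the top arrays were close together and all below the control, and the log2 differences were -0.85 (SE 0.18) and -0.79 (SE 0.17), with limma adjusted p values of 0.037 and 0.043. Both calls were lost without any 1 of the 6 top and control arrays, and the adjusted p reached 0.14 and 0.16. They were also lost with quantile normalization, with no filter and with no intensity trend.

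The shift of the ribosomal list was seen on each top array. Its median difference from the control mean was -0.30, -0.29 and -0.43 on top replicates 1, 2 and 3, and -0.01, -0.04 and 0.09 on the control arrays. Ribosomal probe sets are bright, and brighter probe sets leaned slightly downwards in this comparison. When the tested probe sets were divided into 10 equal classes of mean signal, the median difference of the brightest class was -0.10, with 61.1% below 0. In the next class, which holds 23 of the ribosomal probe sets, it was -0.01. The part of brightness in the ribosomal median was not tested. The same list's medians against the control were -0.27 in the bottom flank, -0.33 in the lit flank and -0.20 in the shaded flank, all of which share the control arrays with the top flank. The median of the list in the top flank minus the bottom flank was -0.12, and minus the lit flank -0.07, with 0 members called in either.

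**Figure D3:**
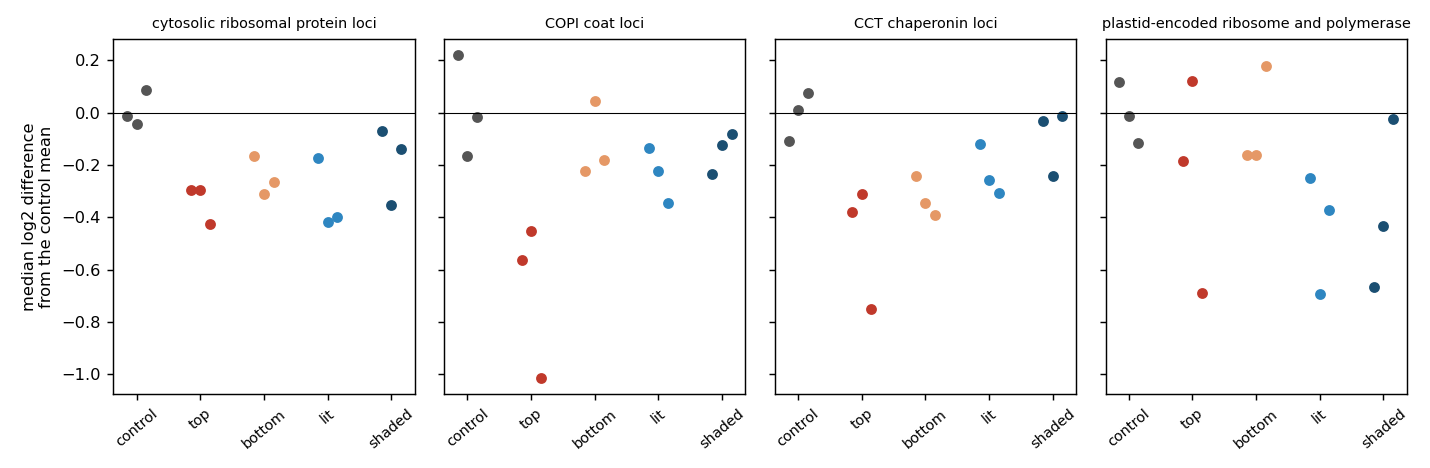
Median log2 difference from the control mean (vertical axis) over the tested probe sets of 4 gene lists, 1 point per array in 5 groups. For the cytosolic ribosomal list the top arrays lie between -0.43 and -0.29 and the control arrays between -0.04 and 0.09; for the COPI list the top arrays lie between -1.01 and -0.45.

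AT3G05910, AT1G25230 and AT3G23940, which encode enzymes, were lower by more than 1 log2 unit. AT3G05910, a member of the pectin acetylesterase family, which removes acetyl groups from wall pectin, read 2613, 2138 and 2152 on the control arrays and 568, 655 and 1128 on the top arrays. It fell by 1.61 on the log2 scale (SE 0.30, limma adjusted p = 0.019), with no overlap. AT1G25230, a purple acid phosphatase, read 5352, 5202 and 2567 on the control arrays and 1295, 1579 and 1479 on the top arrays. Control replicate 3 stood well below the other 2 control arrays but above the top flank, and AT1G25230 fell by 1.52 (SE 0.28, limma adjusted p = 0.015). AT3G23940, the dihydroxy-acid dehydratase of branched-chain amino acid synthesis, read 1909, 2420 and 2699 in the control and 997, 639 and 1044 in the top flank, and fell by 1.41 (SE 0.26, limma adjusted p = 0.015). All 3 genes lost their calls without control replicate 2 or top replicate 1, and the adjusted p rose to 0.11 for AT3G05910, 0.09 for AT1G25230 and 0.073 for AT3G23940; control replicate 1 or 3 and top replicate 2 also ended some of these calls.

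AT1G12000 encodes the beta subunit of pyrophosphate-dependent phosphofructokinase, an enzyme of glycolysis. It read 3173, 4104 and 3235 on the control arrays and 1530, 1638 and 1653 on the top arrays. The top arrays were nearly equal and all lower, and AT1G12000 fell by 1.12 on the log2 scale (SE 0.20, limma adjusted p = 0.012). PMM, phosphomannomutase, which makes the mannose phosphate used for ascorbate and for sugar chains on proteins, read 11088, 11002 and 11615 on the control arrays and 5829, 7079 and 6880 on the top arrays. Its groups were far apart for their spread, and PMM fell by 0.77 (SE 0.13, 1.71-fold lower, limma adjusted p = 0.0097). Without top replicate 1 the adjusted p of PMM was 0.067, and that of AT1G12000 rose to 0.076 at most, over top replicate 1 and control replicate 2 left out in turn.

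A further 5 genes for enzymes fell. AT2G19880, ceramide glucosyltransferase of sphingolipid synthesis, differed by -0.92, and AT5G10160, a hydroxyacyl-ACP dehydratase of plastid fatty acid synthesis, by -0.66 (limma adjusted p = 0.037 and 0.033). AT5G15950, an S-adenosylmethionine decarboxylase, which supplies polyamine synthesis, differed by -0.93, and AT2G42490, a copper amine oxidase, which degrades amines, by -1.13 (limma adjusted p = 0.045 and 0.032). AT4G26940, a member of a galactosyltransferase family, differed by -0.64 (limma adjusted p = 0.043). For each of these 5 genes the 3 top arrays lay below the 3 control arrays. Each lost its call without control replicate 1 and without top replicate 1, and over all arrays left out in turn their highest adjusted p ran from 0.14 for AT5G10160 to 0.19 for AT5G15950.

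The remaining lower genes named by size were AT1G51300 at -1.93, AT5G20110 at -1.70, AT3G20430 at -1.20, AT1G15370 at -1.13, ARA12 at -1.12 and AT2G24040 at -1.04. AT5G20110 belongs to the dynein light chain type 1 family, ARA12 is a subtilisin-like protease of the cell wall, and AT2G24040 belongs to a family of low-temperature and salt responsive proteins. ARA12 read 727, 600 and 590 on the control arrays and 282, 247 and 358 on the top arrays (limma adjusted p = 0.043). AT5G20110 read 705, 356 and 762 on the control arrays and 204, 206 and 132 on the top arrays (limma adjusted p = 0.023). In both genes every top array was below every control array, though control replicate 2 of AT5G20110 was much lower than its fellows. Each of these 6 genes lost its call without control replicate 1 and without top replicate 1, with highest adjusted p from 0.11 for AT5G20110 to 0.19 for AT2G24040.

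Among higher genes, AT4G26870 had the firmest increase. It encodes a class II aminoacyl-tRNA synthetase family protein related to enzymes that charge tRNA with aspartate. It read 1259, 1004 and 1122 on the control arrays and 6116, 5262 and 6091 on the top arrays. The top arrays were close together and far above the control arrays, and AT4G26870 rose 5.17-fold (log2 difference 2.37 ± 0.28 SE, limma adjusted p = 4.5e-04). AT3G16530, a legume lectin domain protein, read 1963, 1773 and 1770 on the control arrays and 3435, 3394 and 3358 on the top arrays. The spread within both groups was small, and AT3G16530 rose 1.85-fold (log2 difference 0.89 ± 0.13 SE, limma adjusted p = 0.0042). AT4G26870 and AT3G16530, with rpl14, rpl16 and AT4G14160, were the 5 of 48 named genes that kept their calls under all 9 alternatives and without each array in turn.

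AT5G55180, AT3G25810 and AT2G21100 rose with more scatter between arrays. AT5G55180, a glycosyl hydrolase of family 17, which holds enzymes that cut beta-glucans, read 85.7, 371 and 1595 on the control arrays and 2625, 2583 and 3766 on the top arrays. Its control arrays were spread widely, with control replicate 3 the nearest to the top flank, and the difference of 2.99 had an SE of 0.65 (limma adjusted p = 0.039). AT3G25810, a terpene synthase, read 164, 254 and 368 on the control arrays and 1092, 1416 and 1587 on the top arrays. The groups were well apart and AT3G25810 rose (log2 difference 2.44 ± 0.55 SE, limma adjusted p = 0.048). AT2G21100, a dirigent-like protein, of a family that guides the coupling of phenolic precursors, read 94.8, 197 and 342 on the control arrays and 676, 780 and 1103 on the top arrays (log2 difference 2.17 ± 0.46 SE, limma adjusted p = 0.037). The calls of AT5G55180 and AT2G21100 were lost without control replicate 1 or 2 or any 1 of the top arrays, that of AT3G25810 without any 1 of the 6 arrays, AT5G55180 and AT3G25810 also without 4 arrays of other groups each, and the highest adjusted p values were 0.14, 0.16 and 0.19.

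RTE1, AFR and AT4G38810 rose as well. RTE1, which acts with the ethylene receptor ETR1 to hold back ethylene responses, read 415, 495 and 195 on the control arrays and 869, 1552 and 821 on the top arrays. All top arrays were higher, with top replicate 2 the highest, and RTE1 rose 3.03-fold (log2 difference 1.60 ± 0.34 SE, limma adjusted p = 0.037). AFR, an F-box protein with kelch repeats that takes part in far-red light signalling, read 436, 602 and 1142 on the control arrays and 2135, 2249 and 1705 on the top arrays. The control arrays were spread but did not reach the top flank, and AFR rose 3.01-fold (log2 difference 1.59 ± 0.30 SE, limma adjusted p = 0.021). AT4G38810, a calcium-binding EF-hand protein, read 965, 1507 and 823 on the control arrays and 2992, 2300 and 2385 on the top arrays (log2 difference 1.26 ± 0.25 SE, limma adjusted p = 0.030). RTE1 and AT4G38810 lost their calls without control replicate 1 or 3 or top replicate 1 or 3, RTE1 also without top replicate 2, and AFR lost its call without control replicate 1 or 2 or top replicate 1 or 2, with highest adjusted p of 0.14, 0.14 and 0.097 for RTE1, AT4G38810 and AFR.

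AT2G37130, AT1G01800 and CYP71B6, which encode oxidoreductases, also rose. AT2G37130, a class III peroxidase, a secreted enzyme that acts on phenolics with hydrogen peroxide, read 774, 678 and 903 on the control arrays and 1530, 1923 and 2009 on the top arrays. AT1G01800, a short-chain dehydrogenase of the Rossmann-fold type, read 441, 764 and 361 on the control arrays and 1411, 1375 and 1398 on the top arrays. In both genes the groups lay apart, and in AT1G01800 the top arrays were almost equal; AT2G37130 rose 2.32-fold and AT1G01800 2.82-fold (limma adjusted p = 0.011 and 0.0097). CYP71B6, a cytochrome P450 of indole-3-acetonitrile metabolism, read 770, 1055 and 828 on the control arrays and 1843, 1827 and 1717 on the top arrays, and rose 2.05-fold (limma adjusted p = 0.013). AT2G37130 lost its call only without control replicate 2 (adjusted p = 0.062), AT1G01800 without control replicate 1 or top replicate 1, and CYP71B6 without those or control replicate 3, with adjusted p of at most 0.054 and 0.072.

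The aldehyde dehydrogenase ALDH22A1 read 202, 330 and 131 on the control arrays and 589, 563 and 572 on the top arrays. ALDH11A3, the non-phosphorylating glyceraldehyde-3-phosphate dehydrogenase of the cytosol, read 486, 373 and 386 on the control arrays and 920, 687 and 958 on the top arrays. Both had all top arrays above the control, with log2 differences of 1.48 and 1.04 (limma adjusted p = 0.037 and 0.036). APS3, an ATP sulfurylase, the first enzyme of sulfate assimilation, read 1040, 1512 and 1915 on the control arrays and 2678, 2955 and 2804 on the top arrays, and rose 1.95-fold (limma adjusted p = 0.030). It was 1 of 4 tested probe sets for sulfur and glucosinolate metabolism, the other 3 not past the test. All 4 had differences above 0, with a median of 0.24. For all tested probe sets, 0.422% were called higher and 49.7% were below 0. The list's median shift overlapped between groups, at 0.43, 0.50 and 0.13 on the top arrays and -0.25, 0.08 and 0.19 on the control arrays. APS3 lost its call with no filter, with no intensity trend and with only the compared groups. BGLU40, a beta-glucosidase, rose 1.85-fold (limma adjusted p = 0.036). ALDH22A1, ALDH11A3, APS3 and BGLU40 each lost their calls without control replicate 1 and without top replicate 1, their adjusted p reaching 0.14, 0.15, 0.11 and 0.17 over the arrays left out.

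The other higher genes named by size were AT5G05320 at 1.69, AT3G09470 at 1.66, a transporter of the major facilitator superfamily, and AT2G17710 at 1.03. Their limma adjusted p values lay just inside the threshold, at 0.046, 0.045 and 0.048. AT5G05320 read 556, 144 and 160 on the control arrays and 822, 617 and 850 on the top arrays, while AT3G09470 read 159, 172 and 190 against 748, 820 and 268. Control replicate 1 of AT5G05320 and top replicate 3 of AT3G09470 were thus close to the other group. These 3 genes were among those that kept their calls least often, in 1, 2 and 2 of the 15 fits that left out an array, the adjusted p reaching 0.18, 0.21 and 0.16.

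Both of the largest increases and several firm decreases belonged to probe sets with no gene named here. The probe set 253666_at read 91.2, 149 and 413 on the control arrays and 12692, 3988 and 12858 on the top arrays. It rose (log2 difference 5.61 ± 0.91 SE, limma adjusted p = 0.0079), with top replicate 2 the lowest of the top arrays. The probe set 261438_at read 126, 384 and 12.6 on the control arrays and 2853, 3271 and 3779 on the top arrays, and also rose (log2 difference 5.28 ± 0.93 SE, limma adjusted p = 0.012). The control means of both, 7.47 and 6.40 on the log2 scale, lay under the brightness limit, so their folds are not given. Downwards, 246390_at read 38711, 28356 and 21407 on the control arrays and 4880, 6749 and 5901 on the top arrays, a fall of 4.94-fold (limma adjusted p = 3.9e-04). The probe set 265066_at read 12740, 10159 and 11598 against 1724, 2442 and 3138, a fall of 4.84-fold (limma adjusted p = 4.2e-05). All 4 had groups well apart; the falls of 246390_at and 265066_at kept their calls under all alternatives and without each array, and the rises of 253666_at and 261438_at were lost without top replicate 1 (adjusted p = 0.054 and 0.058). These 4 were chosen after their values were seen.

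**Figure D4:**
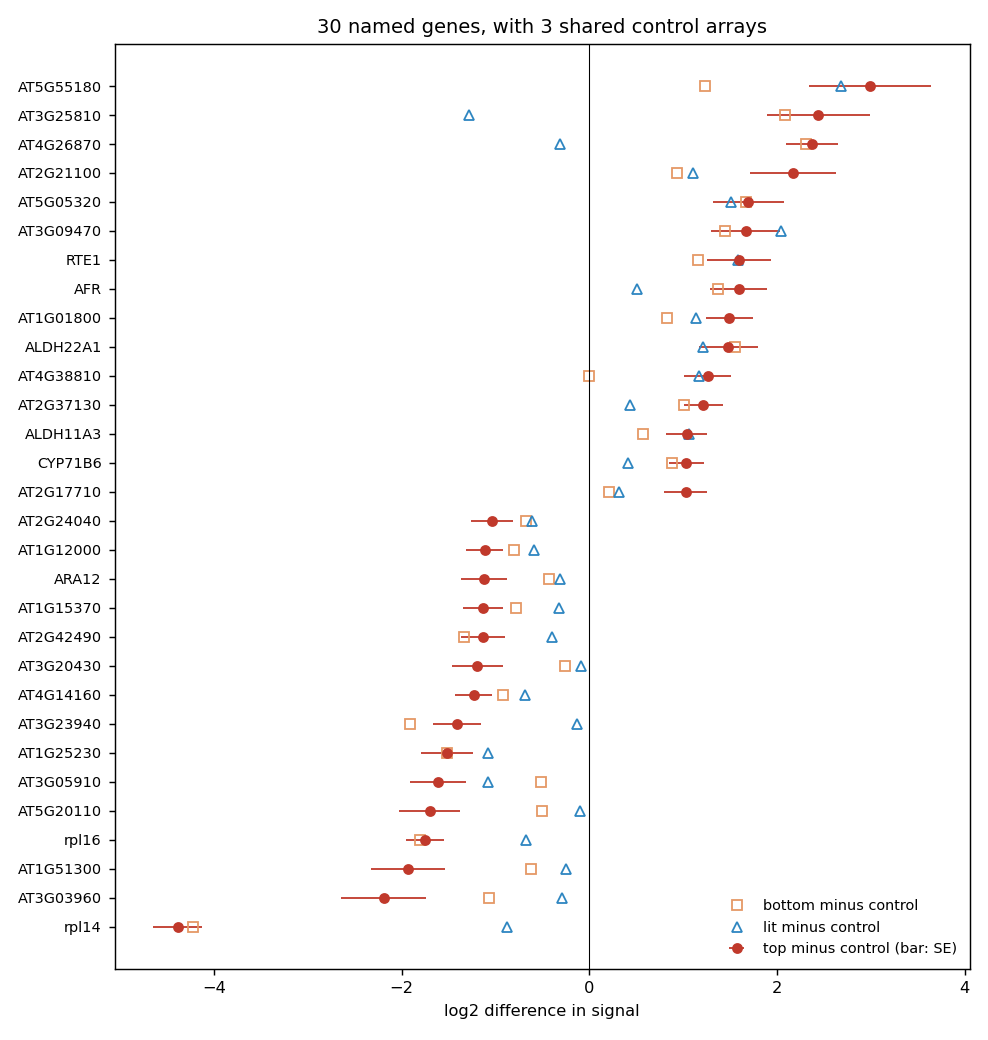
Log2 difference from the control (horizontal axis) for the 15 higher and 15 lower genes named by size in the top flank, with the SE of the top flank as a bar, and with the bottom flank and the lit flank against the same 3 control arrays. AT4G26870, rpl14 and rpl16 have top and bottom values close together, while AT3G25810 and AT4G26870 have lit values below 0 and top values above 0.

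Set directly against the bottom flank of the same stimulation, the top flank differed in few probe sets. Of 11371, 4 passed the test, or 0.0352%, 1 higher (0.00879%) and 3 lower (0.0264%) in the top flank, where 852 had an unadjusted p under 0.05. The one named gene among the 4 was WES1, another name of GH3.5, an enzyme that joins auxin to amino acids and whose transcript is raised by auxin. It read 1036, 993 and 1214 on the top arrays, 1534, 1468 and 1123 on the control arrays, and 2315 ± 24.6 (SD, n = 3) in the bottom flank. Top and control overlapped (difference -0.34, limma adjusted p = 0.48), and the top flank was 1.10 log2 units below the bottom flank (difference -1.10 ± 0.18 SE, limma adjusted p = 0.048). That call kept its place in 4 of the 9 alternatives and without 2 of the 15 arrays, and without any of the others its adjusted p reached at most 0.18. The number of calls between both flanks ran from 0 to 7 with 1 array left out, and was 0 without any 1 of the control arrays, top replicate 2 or bottom replicate 3 among others. The remaining 3, all unnamed, also passed in the top flank against the control: 252343_at at 0.71, 253534_at at 1.05 and 257202_at at -1.02.

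HAT2, an HD-Zip transcription factor that auxin induces, was the lowest of the 6 auxin genes tested. It read 609, 664 and 972 on the control arrays and 389, 466 and 291 on the top arrays. The top arrays were all below the control arrays, but the difference of -0.97 did not pass (SE 0.28, limma adjusted p = 0.14), nor did the difference of -1.61 from the bottom flank (limma adjusted p = 0.055). The other auxin genes gave -0.45 for GH3.9, -0.19 for the kinase WAG2, -0.15 for YUC2 and 0.17 for YUC4, the YUC genes being enzymes of auxin synthesis. Of the 6, 0 passed against the control in limma, 1 had an unadjusted p under 0.05 and 5 had differences below 0, with a median of -0.27. Beside them, all tested probe sets had 0.853% called, 11.5% at that unadjusted p and 49.7% below 0. The list's median shift overlapped between groups, at -0.28, -0.44 and -0.11 on the top arrays and -0.20, 0.01 and 0.16 on the control arrays. A further 12 auxin probe sets that carried names were below the brightness limit.

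For the genes named by size, values of both gravity flanks against the control share 3 control arrays and are set side by side here. In the bottom flank rpl14 differed by -4.22, rpl16 by -1.80, AT4G26870 by 2.31, AFR by 1.37 and AT1G25230 by -1.52. Values further from those of the top flank were those of AT4G38810, at 0.00 in bottom and 1.26 in top flank, AT5G20110, at -0.50 and -1.70, AT3G05910, at -0.51 and -1.61, and AT2G17710, at 0.21 and 1.03. In none of these 9 genes did the direct difference between top and bottom flank pass; AT4G38810 came nearest, at 1.26 ± 0.25 SE (limma adjusted p = 0.11). AT4G27450 and AT5G51280 were the other named genes of smallest p that were higher in the top than in the bottom flank, at 1.28 and 1.85 (limma adjusted p = 0.13 and 0.11).

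Set against the lit flank after blue light, the other flank that elongates less, the top flank differed in 10 of 11371 probe sets, or 0.0879%, 6 higher (0.0528%) and 4 lower (0.0352%). Among them rpl14 was lower than in the lit flank (log2 difference -3.51, limma adjusted p = 2.9e-06), in which it read 8910 ± 2868 (SD, n = 3). AT4G26870 was 2.68 above (limma adjusted p = 2.0e-04), with 912 ± 121 in the lit flank and 1128 ± 128 in the control. AT3G25810 was 3.72 above (limma adjusted p = 0.011), with 112 ± 55.2 in the lit flank. AT2G31390, a fructokinase of the pfkB family, was 1.28 above the lit flank (limma adjusted p = 0.014); it read 2182, 2118 and 2132 on the control arrays and 3002, 3607 and 3210 on the top arrays, and that difference of 0.61 did not pass (limma adjusted p = 0.21). For rpl16 the difference from the lit flank was -1.08 with a limma adjusted p of 0.05, just outside the threshold. The calls against the lit flank numbered 5 without top replicate 2 and 6 without lit replicate 2; AT3G25810 lost its call without top replicate 2 (adjusted p = 0.074), and AT2G31390 without top replicate 2 or lit replicate 1 or 3 (adjusted p up to 0.080).

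Cell wall and growth genes named in the lists showed no called change in the top flank. The shares over all tested probe sets were 0.853% called and 11.5% at an unadjusted p under 0.05, so lists this short seldom hold a call. These lists were matched by gene symbol and do not hold AT3G05910, AT5G55180 or ARA12, whose called changes are given above. Expansins, which loosen walls, numbered 10 with 0 called in limma, 1 at an unadjusted p under 0.05 and a median of -0.09; EXPA9 read 3823, 5054 and 3956 on the control arrays and 2391, 4050 and 2946 on the top arrays, groups that overlapped (difference -0.47, limma adjusted p = 0.41). EXPB2 differed by 0.50 and EXPB1 by 0.22, with limma adjusted p values of 0.50 and 0.73. Of 7 XTH genes, whose enzymes cut and rejoin xyloglucan, 0 were called in limma and 2 had an unadjusted p under 0.05: XTH19 differed by 0.80, XTH20 by 0.65 and XTH16 by -0.89 (limma adjusted p = 0.44, 0.36 and 0.35). XTH20 read 1413, 1266 and 760 on the control arrays and 1803, 1677 and 1753 on the top arrays, without overlap. Cellulose and pectin genes, 9 in number with 0 called and 2 at an unadjusted p under 0.05, ran from CSLC12, of a family linked to xyloglucan synthesis, at -0.78 to PME61, a pectin methylesterase, at 1.07 (limma adjusted p = 0.19 and 0.21). Tubulins had a median of -0.06 over 7 probe sets, 0 called and 1 at an unadjusted p under 0.05, with TUA6 at -0.42.

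Starch, which the gravity-sensing plastids hold, was represented by 5 probe sets with 0 called in limma, also 0 at an unadjusted p under 0.05, and a median of -0.23. SBE2.2, a starch branching enzyme, read 327, 505 and 707 on the control arrays and 252, 606 and 95.3 on the top arrays, so that its difference of -1.001 came with overlapping groups (SE 0.63, limma adjusted p = 0.59). The amylase gene AMY1 differed by -0.32 and PWD, a phosphoglucan water dikinase that acts in starch breakdown, by 0.25. Calcium and touch genes gave CML42 at -0.52, CML43 at 0.22 and the calreticulin CRT1b at -0.21, with a median of -0.13 over 4 and 0 called, adjusted or not. Genes for reactive oxygen handling had a median of 0.17 over 10 with 0 called, adjusted or not, and PRXIIF, a mitochondrial peroxiredoxin, read 668, 595 and 616 on the control arrays and 825, 775 and 805 on the top arrays (difference 0.36, limma adjusted p = 0.58). The calcium list does not hold the EF-hand gene AT4G38810, and the reactive oxygen list does not hold the peroxidase gene AT2G37130. The called rises of both are given above. With 0.853% called and 11.5% at an unadjusted p under 0.05 over all tested probe sets, lists of this size seldom hold a call. In the list of abscisic acid and dehydration genes 0 of 3 were called and 1 had an unadjusted p under 0.05, with a median of 0.28, from COR15B at -0.19 over COR47 at 0.28 to RD2 at 0.57 (limma adjusted p = 0.91, 0.80 and 0.18).

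**Figure D5:**
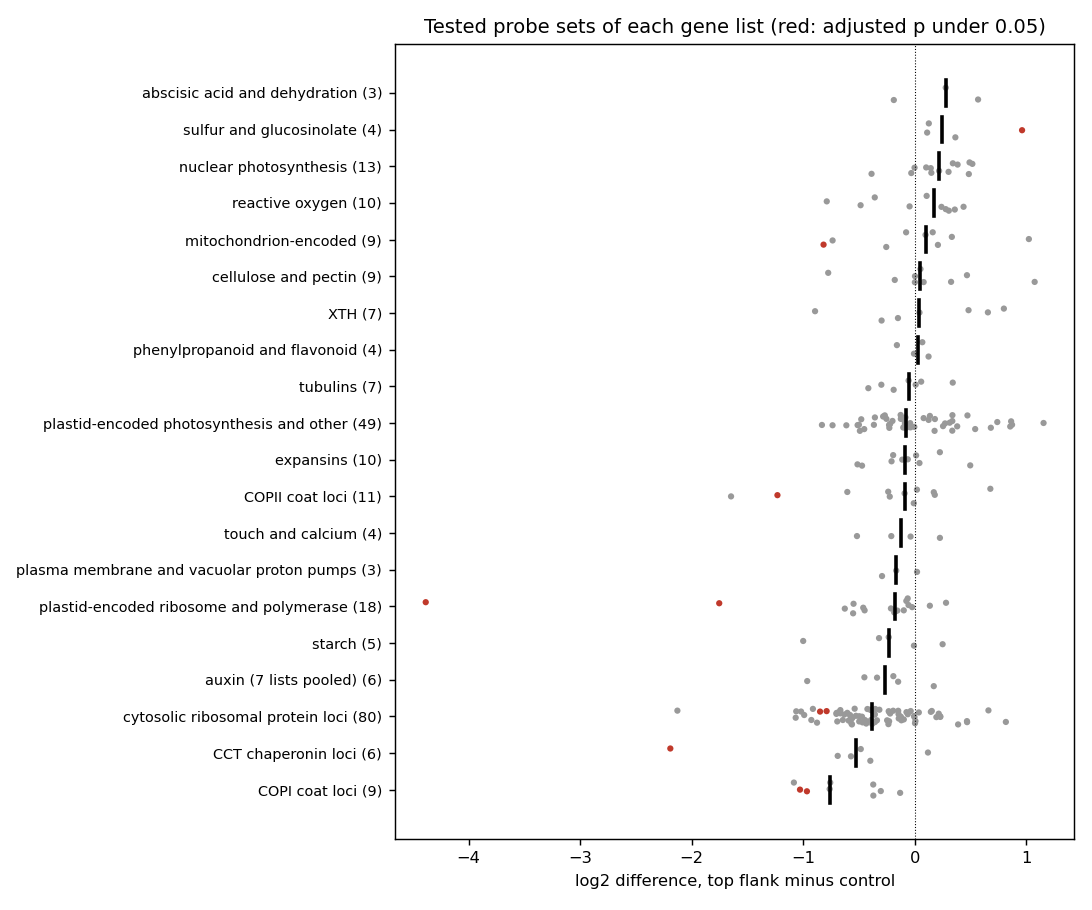
Log2 difference of the top flank from the control (horizontal axis) for each tested probe set of 20 gene lists, with the number of probe sets in brackets, the list median as a black bar and probe sets past an adjusted p of 0.05 in red. The lowest medians are those of the COPI list, -0.76, the CCT list, -0.53, and the cytosolic ribosomal list, -0.38.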

How the data were processed

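The deposited values are intensities, 1 Affymetrix signal per probe set and array on a linear scale, made by the authors with GCOS 3.0, per the submitters' processing notes; for its settings, as for the array dates, the answer is not given in the sources used here. Each array had been scaled to a trimmed mean of 500, so the values allow no count of molecules. Samples are described as biological triplicates by the design text, and about 20 ug of total RNA was labelled per sample, per the labels' protocols. Brassica transcripts that match Arabidopsis probes poorly give low signals, so levels of different genes were not compared. The table held 0 value columns beyond the 15 samples, and at most 0.0877% of values were identical between arrays, so none was counted as a duplicate.

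The 1 value at or below 0 was raised to 0.4, the lowest positive value of the table, before log2 values were computed. Of 22810 probe sets, 64 Affymetrix controls were left out, and the 11371 with a mean log2 signal of at least 8.28, the median of all, were tested. A model of 5 group means over 15 arrays (10 residual degrees of freedom) was fitted in R 4.3.3 using lmFit, contrasts.fit and eBayes of limma 3.58.1, with an intensity trend. Adjusted p values are Benjamini-Hochberg values over all tested probe sets of a comparison, with a threshold of 0.05. Log2 differences carry the SE of that fit, and folds are 2 to their power. The script was tested on simulated data. Same-numbered top and control arrays were checked for pairing: their deviations correlated between -0.05 and 0.01, so the numbers were not taken as pairs.

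The table of the array's annotation gave 1 symbol for 6284 of the tested probe sets, several for 210 and none for 4877, which are unnamed here. Names such as AT4G26870 are Arabidopsis loci, and roles are those known in Arabidopsis. Named genes were up to 15 each way by size among single-symbol probe sets past the threshold, from each list of at least 3 tested probe sets up to 4 members past it or else the 3 of smallest p, and up to 5 each way, or the 3 of smallest p, against the bottom and lit flank, by the brightest probe set of a gene; other genes past the threshold were added after their values were seen. Members, lists and tests were chosen with earlier results of these data known. Of 45 lists, the cytosolic ribosomal, COPI, COPII and CCT lists were made by locus after the values were seen; 7 auxin lists were pooled. Lists are described by counts and medians without a test. The alternatives were quantile normalization, centring on medians, no filter, the brightest 30%, an offset of 50, no intensity trend, array weights, a replicate block, the compared groups alone, leaving out each array and, chosen after seeing the data, cyclic loess.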

Additional observations from a re-analysis of the deposited data

Results flagged for a closer look

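The results here, with or without a gene name, were picked out because the difference of the top flank from the control was itself different from that of another flank, as tested in limma by the direct contrast of both flanks, in which the control cancels. Against the lit flank after blue light, the top flank differed by 3.72 log2 units in AT3G25810, the terpene synthase, by 2.68 in AT4G26870, the aminoacyl-tRNA synthetase family gene, and by 1.28 in AT2G31390, the fructokinase. It differed by -3.51 in rpl14, the plastid ribosomal protein gene, and, among probe sets without a single gene name, by -1.32 in 265066_at, 2.29 in 264299_s_at, which carries several symbols, 1.87 in 252927_at, 1.21 in 264007_at, -1.77 in 255580_at and -1.25 in 247651_at (limma adjusted p = 0.0053 to 0.040). Against the bottom flank of the same stimulation the top flank differed by -1.10 in WES1, the auxin-conjugating enzyme, and by 1.38, -0.99 and -1.06 in the unnamed 253534_at, 252343_at and 257202_at (limma adjusted p = 0.048). The lit signal of AT3G25810 was dim, under the brightness limit, so its 3.72 is no exact size.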

How the results depend on the processing

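The count of 97 probe sets past the threshold between top flank and control was 84 with quantile normalization (46 higher, 38 lower) and 84 with arrays centred on medians (36 higher, 48 lower), and 92 with cyclic loess, an alternative chosen after seeing the data. It was 43 with no filter, 25 with no intensity trend and 54 with only the compared groups. It ran from 101 with the brightest 30% to 131 with array weights, and from 21 to 92 with each array left out in turn, the other groups' arrays included. Without top replicate 2 the 82 calls were 19 higher and 63 lower. With the replicate block it was 87, of which 75 were among the 97; the block gave 5 against the bottom flank and 14 against the lit flank. Since same-numbered arrays did not deviate together, the block only adjusts for a number. Of the 48 named genes called, 7 kept their calls under all 9 alternatives and 5 in all 15 fits that left out an array.

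The 4 probe sets between top and bottom flank became 0 with quantile normalization, 0 with centred arrays, 0 with no filter, 0 with no intensity trend and 1 with only the compared groups, and ran from 0 to 7 with each array left out; where limma called 0, an unadjusted p under 0.05 was met by 845, 835, 1544 and 817. The 10 between top and lit flank became 21 with quantile normalization and 4 with no intensity trend, and ran from 5 to 14 with each array left out. Estimates that changed sign belonged to uncalled genes: VHA-A2 to -0.0156 with centred arrays, -0.00244 with array weights, and -0.0745 and -0.0488 without control replicate 1 and top replicate 3 (range -0.0745 to 0.0927 over arrays left out); VHA-A3 to 0.0057 without control replicate 2 (-0.425 to 0.0057); COR15B to 0.233 (-0.413 to 0.233) and GSTU21 to 0.0894 (-1.35 to 0.0894) without top replicate 2; CCOAMT to -0.0247, -0.0953 and -0.218 without control replicates 2 and 3 and top replicate 3 (-0.218 to 0.320). The cause of these changes was not tested. Of 20 list medians, 10 changed sign under some setting. The ribosomal median stayed between -0.42 and -0.31 and the COPI median between -0.84 and -0.40. The calls within these lists did not hold as their medians did. Ribosomal calls numbered 0 with quantile normalization, with no filter and with no intensity trend. COPI calls numbered 0 with no filter, with no intensity trend and with only the compared groups. With 3 arrays a group, the median SE of a log2 difference was 0.29, and dim probe sets were left out.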
